A study of Mus musculus with 12 samples.

Results

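The immunoglobulin heavy chain variable (Ighv) segments were followed through messenger RNA sequencing of HSPCs, the haematopoietic stem and progenitor cells of mouse bone marrow that give rise to all blood lineages. They were taken as the genes of GENCODE M21 with the biotype IG_V_gene, a symbol that starts with Ighv and at least 10 counts summed over the libraries. The rule gave 102 of the 54532 gene IDs in the count table, and 102 of the 113 Ighv genes of that biotype. Of the other 11 genes, 4 had no count in any library.

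There were 12 libraries in 4 groups of 3: aged HSPCs cultured with uridine, aged HSPCs cultured with vehicle, uncultured aged HSPCs and uncultured young HSPCs. Uridine is a pyrimidine nucleoside and a building block of RNA. All samples were labelled bone marrow and WT, and no transgene or deletion was named. The genotype label read c57bl/6 for the vehicle libraries and a running number from c57bl/7 to c57bl/15 for the others, so the strain is uncertain. The sources used here give no ages, culture time, uridine dose or markers of a cell sort. Library totals ran from 16785065 to 19025802 counts. Nothing in the labels tells whether libraries of one group are from different mice or cultures, so the spread behind the p-values may be technical.

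An antibody heavy chain is made from a variable, a diversity and a joining segment that the RAG recombinase joins in developing B cells. Each B cell and its daughters then transcribe mainly the one variable segment they rearranged, spliced to a constant region such as Ighm (IgM) or Igha (IgA). Plasma cells, the antibody-secreting end of the lineage, make this transcript at very high levels. In bulk RNA the counts on Ighv genes are therefore a sum over cells, and fewer cells of a type and less RNA per cell cannot be told apart.

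All 102 segments lie on the minus strand of chromosome 12, between 113578504 and 116000461 of the GRCm38 assembly (the mm10 build), with Ighv5-2 nearest the diversity segments and Ighv1-85 farthest from them. They belong to 16 families by name, of which the Ighv1 family alone has 50 members. Their annotated exons span 347 to 480 bases, with a median of 353, and hold a leader and the variable region. The 60 last bases of the 8 segments below are shown because each was among the 5 most used in at least 1 group. Capitals mark the codon of the conserved cysteine at the end of framework region 3, after which the junction with the diversity segment begins.
Ighv1-26: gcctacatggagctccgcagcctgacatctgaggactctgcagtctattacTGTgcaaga
Ighv3-6: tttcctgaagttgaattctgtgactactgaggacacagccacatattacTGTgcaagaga
Ighv1-85: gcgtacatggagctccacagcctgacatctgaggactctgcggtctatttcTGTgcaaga
Ighv1-18: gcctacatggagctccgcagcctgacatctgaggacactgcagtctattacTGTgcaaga
Ighv5-9-1: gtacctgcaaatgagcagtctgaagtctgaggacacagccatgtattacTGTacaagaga
Ighv1-81: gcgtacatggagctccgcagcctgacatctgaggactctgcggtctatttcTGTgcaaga
Ighv1-53: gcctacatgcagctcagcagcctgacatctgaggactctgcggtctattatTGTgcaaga
Ighv9-3: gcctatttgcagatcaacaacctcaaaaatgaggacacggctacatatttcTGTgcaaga
The run TGTGCAAGA stood within the last 12 bases of 55 of the 102 segments and of 3 of the 11 segments below the minimum, read on the coding strand. The sequences are GENCODE M21 transcripts.

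Near-identical copies limit how well reads can be assigned. The median identity of a segment to its closest copy was 95.4%, and 12 of the 102 segments had a copy at 98% or more. The pair Ighv1-20 (chr12:114723772-114724205) and Ighv1-37 (chr12:114896238-114896671) is shown because its members moved in opposite directions in 2 of the 3 comparisons. The genes are 98.58% identical over the coding sequence, and bases 40 to 339 are given, with capitals at the bases at which they differ.
Ighv1-20: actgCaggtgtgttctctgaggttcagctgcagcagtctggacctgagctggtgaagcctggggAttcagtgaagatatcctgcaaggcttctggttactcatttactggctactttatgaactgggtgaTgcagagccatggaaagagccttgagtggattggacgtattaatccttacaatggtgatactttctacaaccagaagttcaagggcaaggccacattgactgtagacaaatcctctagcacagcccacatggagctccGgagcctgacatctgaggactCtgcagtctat
Ighv1-37: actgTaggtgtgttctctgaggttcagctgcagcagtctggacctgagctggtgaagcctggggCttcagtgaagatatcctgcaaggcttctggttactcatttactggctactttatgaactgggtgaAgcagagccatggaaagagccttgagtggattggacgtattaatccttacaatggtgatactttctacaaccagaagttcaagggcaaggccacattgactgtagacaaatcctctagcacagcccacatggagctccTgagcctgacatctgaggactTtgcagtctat
The differences, with the base of Ighv1-20 first and positions counted from 1 at the 5′ end of the coding sequence, are C44T, A104C, T170A, G308T and C329T. Reads that cover none of them cannot be told apart, so the values of both genes are uncertain.

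The summed Ighv level separated uncultured aged cells from the other 3 groups. Summed over the 102 segments, the uridine libraries had 8801, 8389 and 8722 counts, the vehicle libraries 10600, 9978 and 9831, the uncultured aged libraries 220768, 222629 and 212658, and the young libraries 9895, 8610 and 9354. Scaled to library size as CPM, with TMM factors, the sum averaged 432 ± 2.49 CPM in uridine cultures, 554 ± 4.87 in vehicle cultures, 14947 ± 471 in aged uncultured cells and 492 ± 20.1 in young cells (SD, n = 3 each). No 2 groups overlapped. The sum was 30.4-fold higher in uncultured aged than in young cells, 27.0-fold lower in vehicle cultures than in uncultured aged cells, and 0.781 times the vehicle level in uridine cultures.

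Markers of B-lineage cells differed between the groups as well. The 8 heavy chain constant genes summed to 3144 to 3256 CPM in uridine cultures, 4742 to 4790 in vehicle cultures, 138470 to 139922 in aged uncultured cells and 2859 to 2903 in young cells. A list of 8 plasma cell genes summed to 757 to 782 CPM in uridine cultures, 1091 to 1142 in vehicle cultures, 25711 to 25971 in aged uncultured cells and 682 to 692 in young cells. Jchain, the joining chain of polymeric antibodies, averaged 439 ± 9.91 CPM in uridine cultures, 781 ± 18.1 in vehicle cultures, 23474 ± 124 in aged uncultured cells and 303 ± 0.291 in young cells. Jchain is 1 of the 8 plasma cell genes and made up most of their sum in aged uncultured cells, so these measures are not separate. All were far higher in uncultured aged cells than elsewhere. The sum over a list of 9 genes of B cell precursors and recombination was instead highest in young cells and lowest in vehicle cultures. It was 272 to 288 CPM in uridine cultures and 61.0 to 64.9 in vehicle cultures. In aged uncultured cells it was 297 to 314, and in young cells 761 to 765. In aged uncultured cells Pax5 made up most of the sum, at 178 CPM, and was above its 125 CPM in young cells. Pax5 and Ebf1 were higher in aged uncultured cells than in uridine cultures, and the other genes of the list were lower. Igll1 averaged 4.04 CPM in aged uncultured cells and 36.5 CPM in uridine cultures. Il7r was lowest in aged uncultured cells, and Rag2 overlapped between them and vehicle cultures. Rag1, a subunit of the recombinase, averaged 11.9 ± 1.09 CPM in uridine cultures, 0.631 ± 0.325 in vehicle cultures, 2.08 ± 1.08 in aged uncultured cells and 36.9 ± 3.72 in young cells. The 8 mature B cell genes summed to 400 to 416 CPM in uridine cultures, 437 to 440 in vehicle cultures, 5851 to 6109 in aged uncultured cells and 586 to 597 in young cells. The 6 T cell genes summed to 8.57 to 10.2 CPM in uridine cultures, 4.36 to 5.05 in vehicle cultures, 52.3 to 57.9 in aged uncultured cells and 18.6 to 20.5 in young cells. No gene of these lists was at 0 in a group. The 10 stem and progenitor genes summed to 1299 to 1352 CPM in uridine cultures, 1557 to 1562 in vehicle cultures, 1015 to 1039 in aged uncultured cells and 1054 to 1072 in young cells. Markers of the labelled cell type were thus present in every group, but the sum hides differences between genes. Ly6a averaged 258 CPM in uridine cultures, 455 in vehicle cultures, 247 in aged uncultured cells and 17.8 in young cells. Between aged uncultured and young cells, 3 of the 10 genes were called higher, 3 were not called, and 4 (Kit, Cd34, Flt3 and Gata2) were called lower. Of all genes tested, 33.2% were called higher and 32.1% lower, so these counts were near the background. The part of the other cell types in the Ighv results was not tested.

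**Figure D1:**
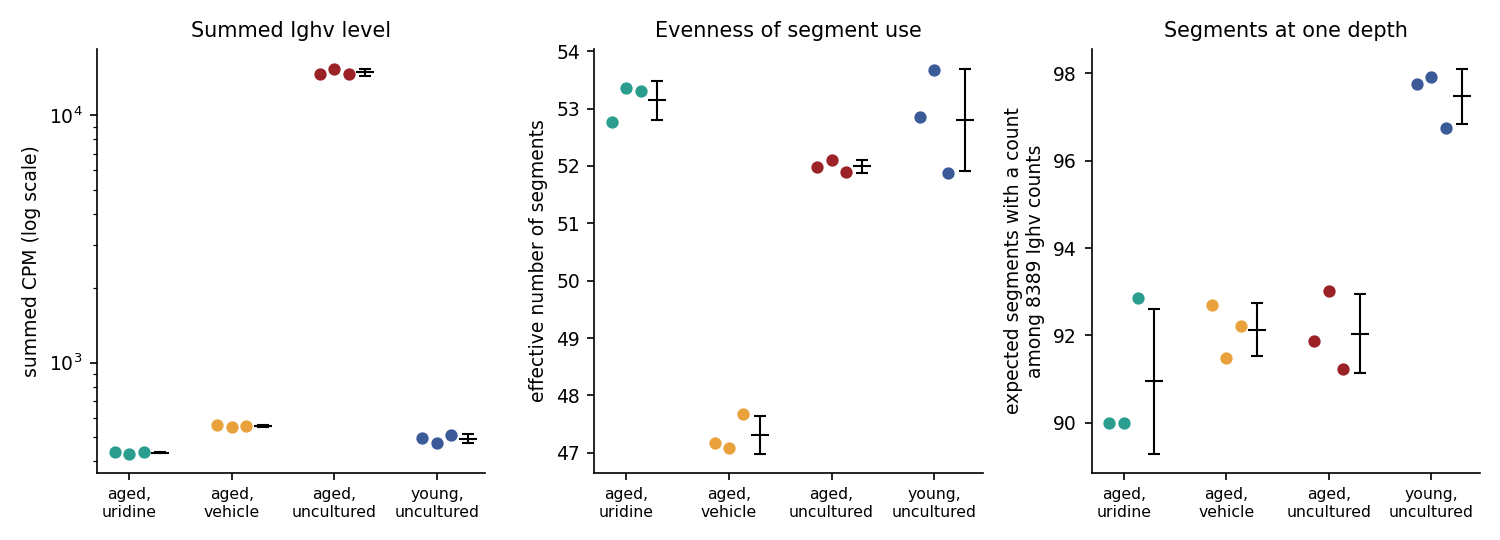
Summed Ighv level in CPM on a log scale (left), effective number of segments (middle) and segments expected among 8389 Ighv counts (right), with 1 point per library and the mean and SD of 3 libraries beside them. Uncultured aged cells stand alone in the level, at 14651 to 15490 CPM, vehicle cultures stand alone in evenness, at 47.1 to 47.7 effective segments, and young cells have the most segments at one depth. The axes do not start at 0.

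Evenness was measured as the effective number of segments, the number of equally used segments that would give the same Shannon entropy. It was 52.8, 53.4 and 53.3 in the uridine libraries, 47.2, 47.1 and 47.7 in the vehicle libraries, 52.0, 52.1 and 51.9 in the uncultured aged libraries, and 52.9, 53.7 and 51.9 in the young libraries. By this measure only the vehicle libraries lay apart from all others, and they were lower. The level and the effective number thus did not go together. Uncultured aged and young cells differed 30.4-fold in summed CPM and averaged 52.0 ± 0.111 and 52.8 ± 0.896 effective segments. Uridine cultures averaged 53.1 ± 0.333, and vehicle cultures 47.3 ± 0.324. Pielou's evenness, which is 1 when all segments are used equally, averaged 0.859 in uridine cultures, 0.834 in vehicle cultures, 0.854 in aged uncultured cells and 0.858 in young cells. The inverse Simpson index, which gives more weight to the most used segments, also set young libraries apart. It was 39.1 to 40.6 in uridine, 32.9 to 33.7 in vehicle, 39.2 to 39.4 in uncultured aged and 36.4 to 38.4 in young libraries. These values were not tested, since they are scores over a chosen set of genes.

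Vehicle cultures were also the most concentrated on few segments. The 10 most used segments of a library took 37.9 to 38.9% of its Ighv counts in uridine cultures, 43.8 to 45.4% in vehicle cultures, 41.0 to 41.2% in aged uncultured cells and 41.1 to 42.5% in young cells. It took 15 segments to reach 50% of the counts in each uridine library, 12 or 13 in vehicle libraries, 14 in each uncultured aged library and 13 or 14 in young libraries. Segments were detected in numbers that depend on depth, 90 to 93 in uridine, 92 or 93 in vehicle, 100 in uncultured aged and 97 or 98 in young libraries. At one depth of 8389 Ighv counts, the expected number was 90.0 to 92.9 in uridine cultures, 91.5 to 92.7 in vehicle cultures, 91.2 to 93.0 in aged uncultured cells and 96.7 to 97.9 in young cells. Young libraries thus held more segments at matched depth, and the 3 other groups overlapped.

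**Figure D2:**
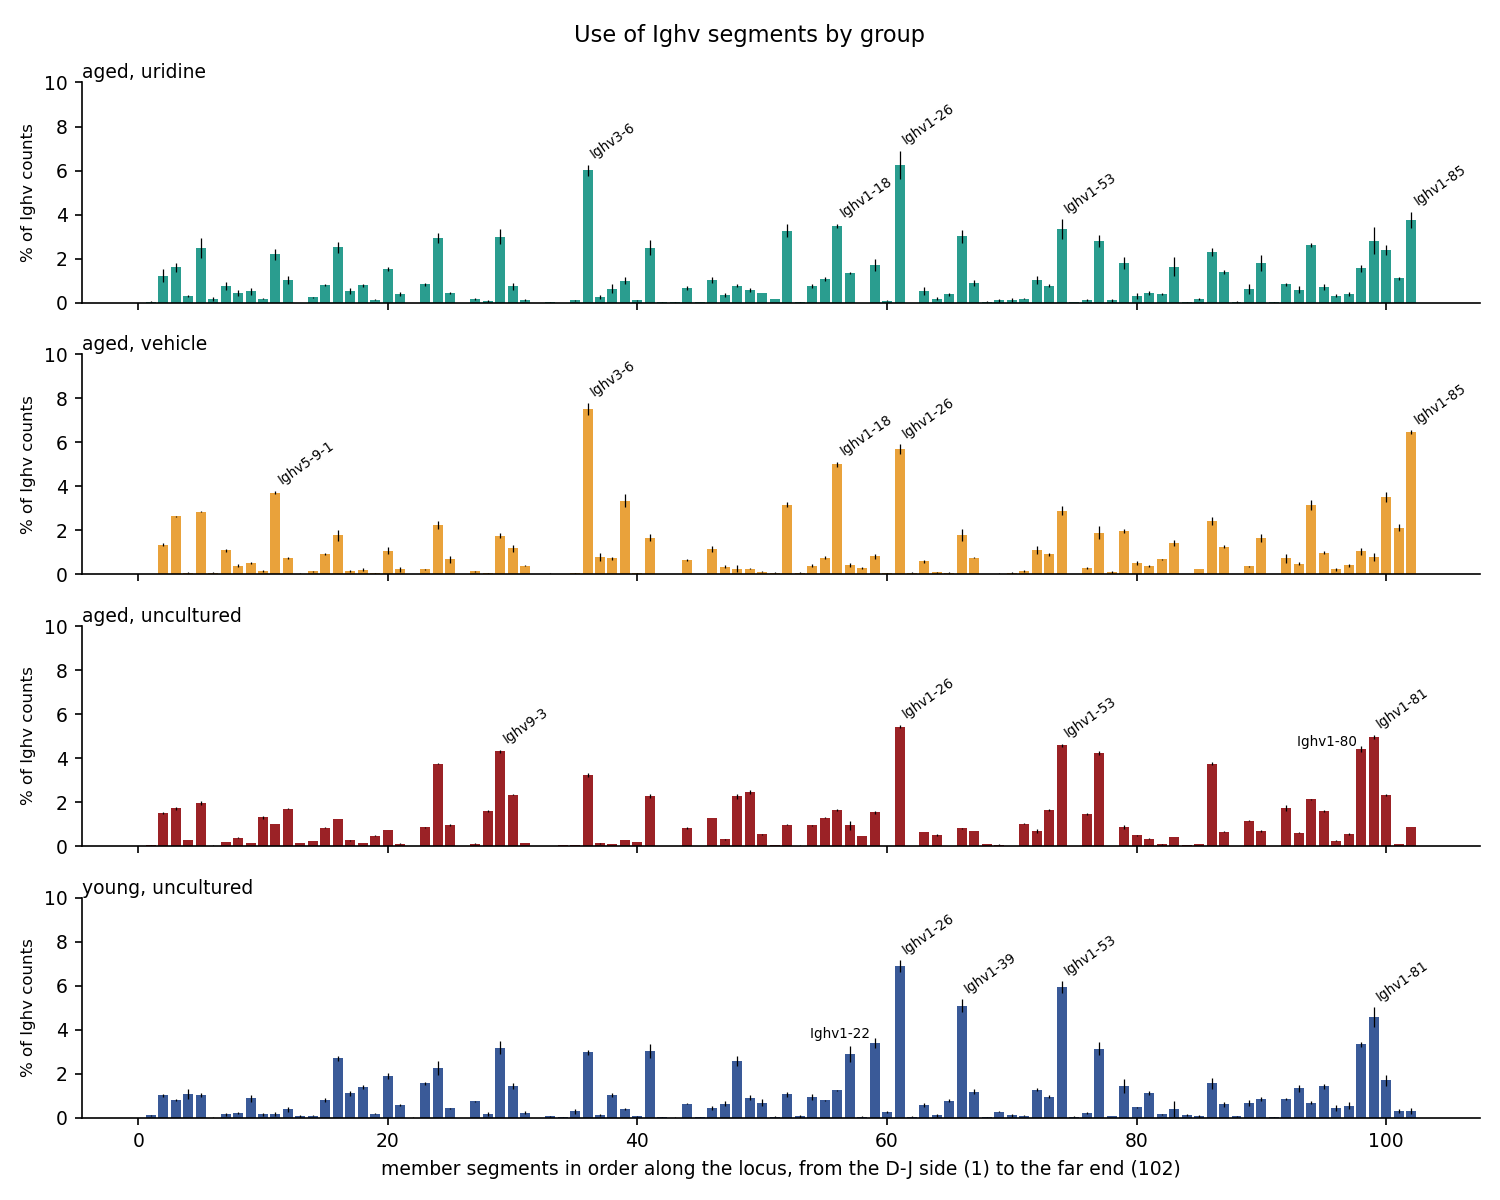
Share of the Ighv counts taken by each of the 102 segments, in percent, ordered along the locus from the side of the diversity and joining segments (1) to the far end (102). Bars are means of 3 libraries and lines are the SD; the 5 most used segments of each group are named. Ighv1-26 is named in every group, and Ighv3-6 and Ighv1-85 lead in vehicle cultures.

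Which segments led differed by group. Ighv1-26 (chr12:114788372-114788805) was the only segment among the 5 most used in all 4 groups. It took 6.81, 5.56 and 6.39% of the Ighv counts in uridine cultures, 5.44, 5.82 and 5.80% in vehicle cultures, 5.53, 5.36 and 5.41% in aged uncultured cells and 6.90, 6.62 and 7.16% in young cells. Its share was lower in every uncultured aged library than in every young library, and the 2 cultures overlapped.

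Ighv3-6 led in the vehicle cultures. Its share was 6.18, 5.73 and 6.12% in uridine cultures, 7.84, 7.30 and 7.43% in vehicle cultures, 3.20, 3.34 and 3.16% in aged uncultured cells and 2.85, 3.06 and 3.02% in young cells. The 4 groups did not overlap, with vehicle highest and young lowest. Ighv1-85, the last segment of the locus, was still further apart, at 3.36, 4.05 and 3.85% in uridine, 6.55, 6.35 and 6.46% in vehicle, 0.855, 0.873 and 0.854% in uncultured aged and 0.172, 0.441 and 0.374% in young libraries. Ighv1-18 and Ighv5-9-1 had the same order of groups. Ighv1-18 took 3.48, 3.40 and 3.59% in uridine cultures, 5.09, 4.87 and 5.04% in vehicle cultures, 1.65, 1.68 and 1.60% in aged uncultured cells and 1.24, 1.22 and 1.28% in young cells. Ighv5-9-1 took 2.18 ± 0.258% in uridine cultures, 3.71 ± 0.0779% in vehicle cultures, 1.01 ± 0.00682% in aged uncultured cells and 0.191 ± 0.0872% in young cells.

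Other segments were used least in vehicle cultures. Ighv1-81 took 2.94, 3.34 and 2.14% in uridine cultures, 0.906, 0.581 and 0.885% in vehicle cultures, 4.99, 4.84 and 5.02% in aged uncultured cells and 4.08, 4.76 and 4.91% in young cells. The vehicle libraries were below all others, and the uridine libraries lay between them and both uncultured groups. Ighv1-80 averaged 1.55 ± 0.170% in uridine cultures, 1.05 ± 0.154% in vehicle cultures, 4.40 ± 0.133% in aged uncultured cells and 3.34 ± 0.117% in young cells. Ighv9-3 averaged 2.99 ± 0.338% in uridine cultures, 1.74 ± 0.113% in vehicle cultures, 4.32 ± 0.0702% in aged uncultured cells and 3.20 ± 0.283% in young cells.

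Ighv1-39, Ighv1-22 and Ighv1-53 were among the leading segments of young cells and were used less elsewhere. Ighv1-39 averaged 3.02 ± 0.301% in uridine cultures, 1.78 ± 0.277% in vehicle cultures, 0.805 ± 0.00873% in aged uncultured cells and 5.09 ± 0.291% in young cells. Ighv1-22 averaged 1.69 ± 0.279% in uridine cultures, 0.824 ± 0.114% in vehicle cultures, 1.54 ± 0.0730% in aged uncultured cells and 3.40 ± 0.220% in young cells. Ighv1-53 averaged 3.35 ± 0.440% in uridine cultures, 2.90 ± 0.220% in vehicle cultures, 4.59 ± 0.0723% in aged uncultured cells and 5.93 ± 0.265% in young cells. For each of the 3, every young library was above every library of the other groups. Counting per kilobase of exon left these leaders in place, except that Ighv13-2 took the fifth place in vehicle cultures from Ighv5-9-1.

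**Figure D3:**
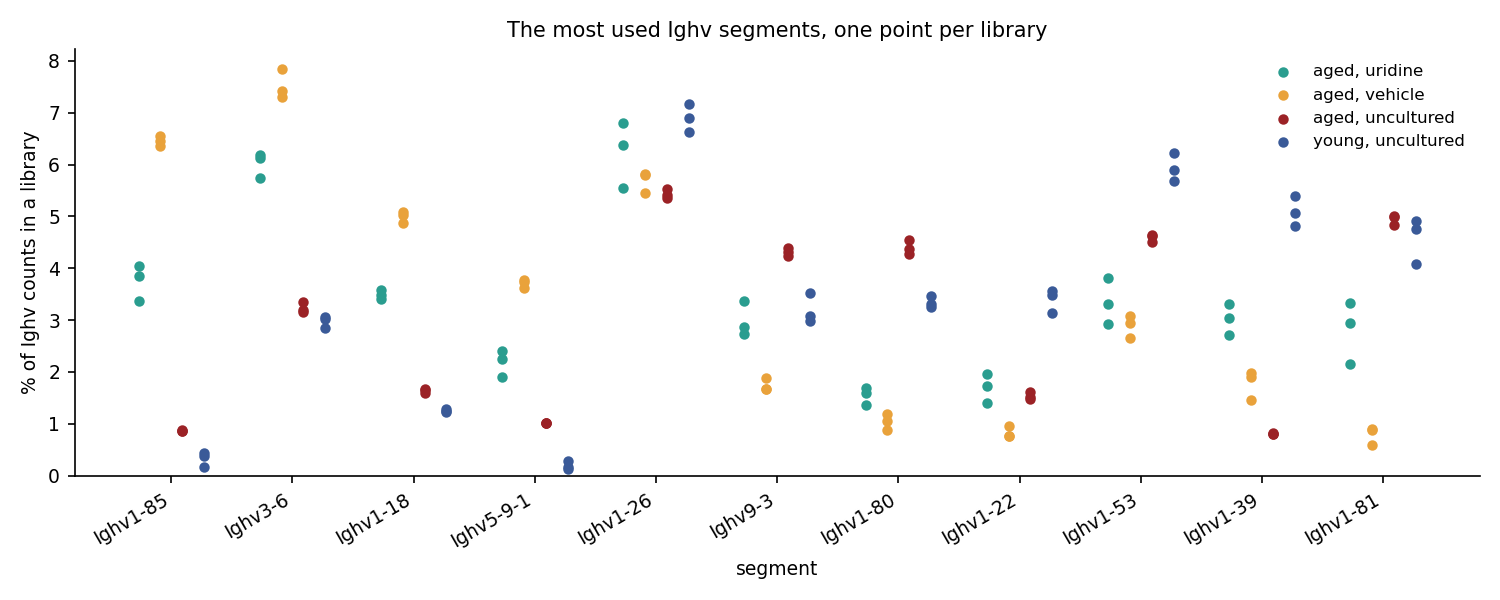
Share of Ighv counts, in percent, for the 11 segments among the 5 most used of any group, with 1 point per library. Ighv3-6, Ighv1-85, Ighv1-18 and Ighv5-9-1 are highest in vehicle cultures and lower in uridine cultures, and Ighv1-81, Ighv1-53 and Ighv1-80 are higher in both uncultured groups than in either culture.

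Summed by family, the Ighv1 segments held 57.2 ± 0.492% of the Ighv counts in uridine cultures, 55.2 ± 0.413% in vehicle cultures, 58.2 ± 0.277% in aged uncultured cells and 62.3 ± 0.777% in young cells, and they are 49.0% of the segments. The Ighv5 family took 11.1 ± 0.206% in uridine cultures, 13.6 ± 0.246% in vehicle cultures, 7.32 ± 0.160% in aged uncultured cells and 6.85 ± 0.351% in young cells. The Ighv3 family took 7.12 ± 0.198% in uridine cultures, 8.50 ± 0.322% in vehicle cultures, 3.51 ± 0.0831% in aged uncultured cells and 4.95 ± 0.0590% in young cells. Both were highest in vehicle cultures, and the Ighv9 and Ighv10 families were highest in uncultured aged cells. The Ighv9 family took 3.46 ± 0.416% in uridine cultures, 2.72 ± 0.118% in vehicle cultures, 6.15 ± 0.0526% in aged uncultured cells and 4.26 ± 0.337% in young cells. The Ighv10 family took 1.58 ± 0.0707% in uridine cultures, 1.39 ± 0.161% in vehicle cultures, 3.74 ± 0.112% in aged uncultured cells and 1.37 ± 0.112% in young cells. Ighv13-2, the only counted segment of its family, took 0.983 ± 0.162% in uridine cultures, 3.35 ± 0.295% in vehicle cultures, 0.269 ± 0.00320% in aged uncultured cells and 0.393 ± 0.0486% in young cells. Shares sum to 100%, so a higher share of one segment lowers those of the rest.

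Along the locus, the 34 segments nearest the diversity segments held 26.0 ± 0.187% of the counts in uridine cultures, 24.8 ± 0.123% in vehicle cultures, 28.5 ± 0.141% in aged uncultured cells and 25.2 ± 0.680% in young cells. The middle 34 held 37.5 ± 1.44% in uridine cultures, 37.0 ± 0.703% in vehicle cultures, 29.9 ± 0.380% in aged uncultured cells and 39.5 ± 0.151% in young cells. The far 34 held 36.4 ± 1.41% in uridine cultures, 38.2 ± 0.685% in vehicle cultures, 41.7 ± 0.300% in aged uncultured cells and 35.3 ± 0.607% in young cells. Uncultured aged libraries thus had less in the middle and more at both ends than young libraries.

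Ighv11-2 and Ighv12-3 are known from B-1 cells, an innate-like B cell subset, and Ighv5-2, the segment nearest the diversity segments, is known for its use early in B cell development. Ighv11-2 took 2.92 ± 0.218% in uridine cultures, 2.24 ± 0.180% in vehicle cultures, 3.74 ± 0.0308% in aged uncultured cells and 2.26 ± 0.316% in young cells. Ighv12-3 was rare, at 0.0917 to 0.114% in uridine cultures, 0.0305 to 0.0472% in vehicle cultures, 0.172 to 0.190% in aged uncultured cells and 0.0581 to 0.0962% in young cells. Both had their highest share in uncultured aged cells. Ighv11-2 shares 98.87% of its aligned bases with Ighv11-1, which had 52 counts in all libraries. Ighv5-2 had 3, 2 and 5 counts in uridine, 3, 0 and 0 in vehicle, 61, 74 and 51 in uncultured aged and 13, 12 and 9 in young libraries. Its share averaged 0.0384 ± 0.0172% in uridine cultures, 0.00943 ± 0.0163% in vehicle cultures, 0.0283 ± 0.00466% in aged uncultured cells and 0.122 ± 0.0230% in young cells, so the young libraries were highest.

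Whole patterns of use were compared by the percentage of Ighv counts that lay on different segments in 2 libraries. Libraries of the same group differed by 7.66 to 9.21% in uridine cultures, 4.76 to 5.80% in vehicle cultures, 1.86 to 2.30% in aged uncultured cells and 6.07 to 7.02% in young cells. Uridine and vehicle libraries differed by 18.1 to 20.1%, vehicle and uncultured aged libraries by 36.8 to 39.3%, and uncultured aged and young libraries by 27.9 to 28.9%. Every pair from different groups thus differed more than any pair within a group. The labels do not tell whether libraries of a group are from different mice, so the spread within a group may be technical. These distances can thus not be set against differences between mice. Uridine libraries were 27.1 to 28.9% from young libraries, and vehicle libraries were 40.6 to 43.8% from them. Uridine libraries were 27.8 to 30.5% from uncultured aged libraries. The mean share in uridine cultures lay between those in vehicle cultures and young cells for 64 of the 102 segments, above both for 20 and below both for 18. The same count with uncultured aged cells in place of young cells is not given. No level expected by chance stands beside it, so a direction of change was not tested.

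**Figure D4:**
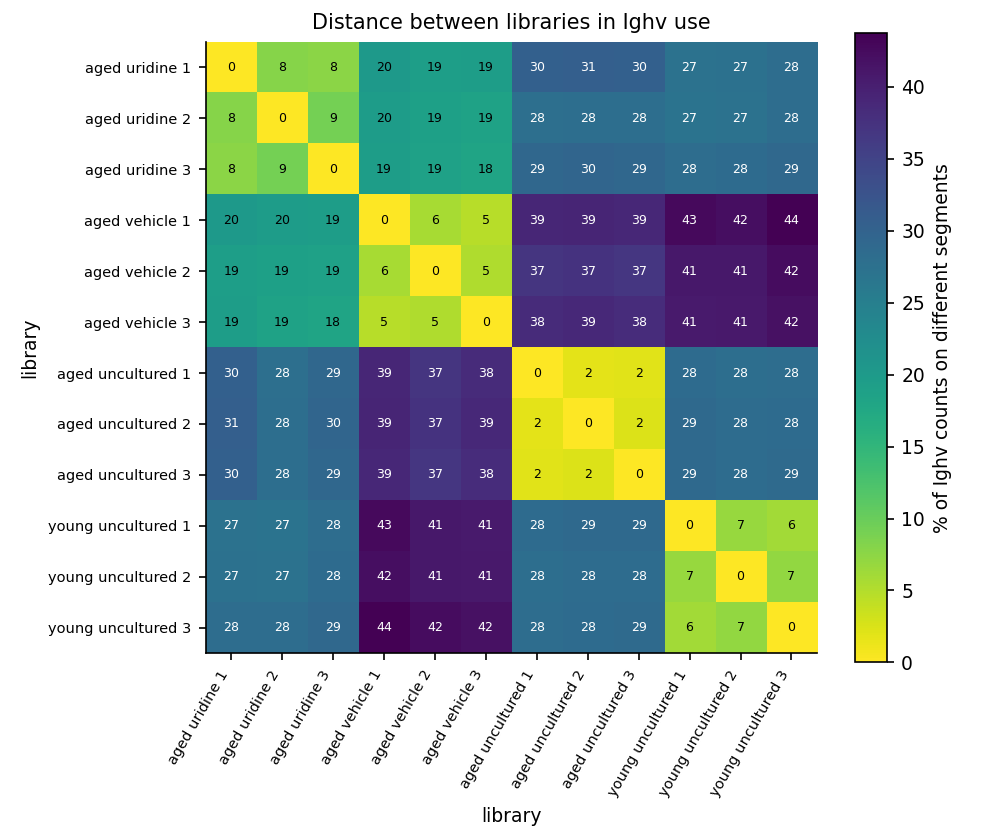
Percentage of Ighv counts that lie on different segments for each pair of the 12 libraries, from 0 (yellow) to 44 (dark). Blocks of 3 along the diagonal are libraries of the same group; the largest distances, 41 to 44%, are between vehicle and young libraries.

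The mix of heavy chain classes differed between the groups as well, although counts per gene do not link a variable segment to a constant gene. Igha held 62.3 ± 0.201% of the counts of the 8 heavy chain constant genes in uridine cultures, 73.4 ± 0.203% in vehicle cultures, 82.3 ± 0.192% in aged uncultured cells and 33.5 ± 0.605% in young cells. Ighm held 32.5 ± 0.309% in uridine cultures, 20.2 ± 0.110% in vehicle cultures, 9.59 ± 0.0506% in aged uncultured cells and 61.9 ± 0.609% in young cells. For every 100 constant counts there were 13.3 to 13.7 Ighv counts in uridine cultures, 11.4 to 11.7 in vehicle cultures, 10.5 to 11.2 in aged uncultured cells and 16.2 to 17.9 in young cells. No 2 groups overlapped in any of these 3 measures.

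Uncultured aged and young cells were compared to ask how use differs with the age of the mouse. With edgeR's quasi-likelihood test over all 16675 genes and Benjamini-Hochberg adjustment at 0.05, 92 segments were higher and 1 was lower in aged cells, where 33.2% of all genes tested were higher and 32.1% lower. In this fit 95 of the 102 segments passed the low-count filter and 7 were not tested, and the filter favours segments that were high in a group. The median log2 fold change of the 95 was 4.89, against 0.02 for all genes. Aged and young libraries were without overlap for 93 segments, 92 higher (33.8% of all genes) and 1 lower (33.1%).

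The rise was uneven across segments. Ighv8-5 had 152, 153 and 145 CPM in aged cells and 0.450, 0.602 and 0.438 CPM in young cells, a log2 fold change of 8.22 (SE 0.124, edgeR adjusted p = 9.43e-36). Ighv9-2 followed with 8.10 (SE 0.105), Ighv2-6 with 8.02 (SE 0.112), Ighv1-20 with 7.80 (SE 0.171) and Ighv1-54 with 7.62. Of the 5 leaders of young cells, Ighv1-81 rose by 5.04 and the other 4 rose by less than the median. Ighv1-26 had 812, 830 and 793 CPM in aged cells and 34.1, 31.2 and 36.6 CPM in young cells, a log2 fold change of 4.58 (SE 0.0470). Ighv1-39 rose by 2.26 (SE 0.0762), with 118, 126 and 117 CPM in aged cells and 25.0, 22.7 and 27.6 CPM in young cells. Relative to all Ighv counts, 37 segments had a higher and 42 a lower share in every aged library than in every young one. Shares within Ighv have no counterpart over all genes, so no background stands beside these counts.

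Ighv1-37 was the segment that fell. It had 27, 27 and 18 counts in aged cells and 71, 73 and 71 counts in young cells, a log2 fold change of -1.21 (SE 0.292, edgeR adjusted p = 4.50e-04). Without uncultured aged library 2, the number of lower segments was 2. Its near-identical copy Ighv1-20 had 1040, 1036 and 935 counts in aged cells and 7, 4 and 6 counts in young cells. Ighv1-37 held 2.34% of the counts of the pair in aged cells and 92.7% in young cells. Ighv1-23 and Ighv1-49 were not called, with 16, 18 and 7 counts in aged cells and 21, 25 and 24 in young cells for Ighv1-23, a near-identical copy of Ighv1-15. For Ighv1-49 they were 3, 5 and 0 counts in aged cells and 18, 5 and 8 in young cells. Beside the segments, all 8 constant genes, all 8 plasma cell genes and all 8 mature B cell genes rose in aged cells, whereas 8 of the 9 precursor genes fell and 1 rose. Of the T cell genes 5 of 6 rose, and of the 10 stem and progenitor genes 3 rose and 4 fell. Among all genes tested 33.2% were higher and 32.1% lower, so the stem and progenitor counts were near the background.

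The comparison of vehicle cultures with uncultured aged cells asked what culture does to the aged cells. In vehicle cultures 0 segments were higher and 93 were lower by edgeR at an adjusted p of 0.05, where 35.4% of all genes were higher and 35.1% lower. No segment was higher at an unadjusted p of 0.05 or by DESeq2 either. The median log2 fold change was -4.73, against -0.01 for all genes, and 94 of the 95 segments tested did not overlap (35.4% of all genes were without overlap and lower). This contrast shares the uncultured aged libraries with the one before it.

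Ighv13-2 and the leaders of the vehicle cultures fell by less than the median, as their high share there implies. Ighv13-2 had 20.2, 16.6 and 18.8 CPM in vehicle cultures and 39.6, 41.3 and 40.0 CPM in uncultured aged cells, a log2 fold change of -1.12 (SE 0.0996, edgeR adjusted p = 2.37e-12). Ighv1-85 had 36.5, 34.8 and 35.9 CPM in vehicle cultures and 126, 135 and 125 CPM in uncultured aged cells, a log2 fold change of -1.85 (SE 0.0729). Ighv3-6 fell by 3.54 on the log2 scale (SE 0.0457), Ighv1-18 fell by 3.15 (SE 0.0529) and Ighv5-9-1 fell by 2.88 (SE 0.0740). Ighv1-84 and Ighv1-49 were not called. Ighv1-84 had 11.6, 12.5 and 11.0 CPM in vehicle cultures and 13.4, 14.9 and 13.2 CPM in uncultured aged cells, a log2 fold change of -0.24 (SE 0.130, edgeR adjusted p = 0.0996), with every vehicle library below every uncultured aged one. Ighv1-49 had 5, 10 and 2 counts in vehicle cultures and 3, 5 and 0 in uncultured aged cells.

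At the other end, Ighv9-2 had 0.210, 0.330 and 0.226 CPM in vehicle cultures and 238, 242 and 237 CPM in uncultured aged cells, a log2 fold change of -9.83 (SE 0.125, edgeR adjusted p = 2.89e-38). Ighv10-3 had 1.42, 1.59 and 1.35 CPM in vehicle cultures and 351, 378 and 378 CPM in uncultured aged cells, a log2 fold change of -7.98 (SE 0.0806). Ighv1-81 had 5.05, 3.19 and 4.91 CPM in vehicle cultures and 733, 750 and 735 CPM in uncultured aged cells, a log2 fold change of -7.39 (SE 0.0814). Ighv3-4 had no count in the vehicle libraries and 77, 59 and 78 counts in uncultured aged cells, so it was at least 89.2-fold lower with a floor of 3 counts over the group. Ighv1-43 had 2 counts in all in vehicle cultures and 532 in uncultured aged cells, a ratio of 333 (95% interval 91.7 to 2750). Such intervals and floors cover counting error only. By share, again without a background over all genes, 36 segments were higher and 46 lower in every vehicle library than in every uncultured aged library. All 8 constant, 8 plasma cell and 8 mature B cell genes and all 6 T cell genes fell too. Of the 9 precursor genes 7 fell and 1 rose, and of the 10 stem and progenitor genes 5 rose and 2 fell. Among all genes tested 35.4% were higher and 35.1% lower in this contrast.

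The comparison of uridine with vehicle cultures asked what uridine adds to culture. By edgeR 15 segments were higher and 33 lower in uridine cultures at an adjusted p of 0.05, where 20.0% of all genes were higher and 18.1% lower. The count of higher segments was thus near the background and that of lower segments above it. The median log2 fold change was -0.15, against 0.00 for all genes, and the 47 other segments tested were not called. At an absolute log2 fold change of at least 1, 25 segments were called, of which 15 were lower. No share of all genes at this cut is given, so these counts have no background. The libraries did not overlap for 54 segments, 20 higher (25.2% of all genes) and 34 lower (24.8%). By share of Ighv counts, which has no background over all genes, 30 segments were higher and 24 lower in every uridine library than in every vehicle library.

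The 5 leaders of the vehicle cultures were lower in uridine cultures. Ighv3-6 had 26.8, 24.6 and 26.6 CPM in uridine cultures and 43.7, 40.0 and 41.2 CPM in vehicle cultures, a log2 fold change of -0.68 (SE 0.0564, edgeR adjusted p = 2.30e-12). Ighv1-85 had 14.6, 17.4 and 16.7 CPM in uridine cultures and 36.5, 34.8 and 35.9 CPM in vehicle cultures, a log2 fold change of -1.14 (SE 0.0850). Ighv5-9-1 fell by 1.12 on the log2 scale (SE 0.0942) and Ighv1-18 fell by 0.88 (SE 0.0672). Ighv13-2 fell by 2.12 (SE 0.124), with 3.79, 3.89 and 5.07 CPM in uridine cultures and 20.2, 16.6 and 18.8 CPM in vehicle cultures. Ighv14-4 fell by 2.06 (SE 0.291) and Ighv9-4 fell by 2.02 (SE 0.248). Ighv1-26 fell by 0.22 (SE 0.0597, edgeR adjusted p = 3.47e-03), a call that was lost without uridine library 2 (log2 fold change -0.14, edgeR adjusted p = 0.0684).

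The near-identical pair moved in opposite directions here too. Ighv1-20 had 0 counts in each uridine library and 26, 29 and 32 counts in the vehicle libraries, at least 31.7-fold lower with the same floor (edgeR adjusted p = 8.83e-12). Ighv1-37 had 28, 27 and 40 counts in uridine cultures and 6, 6 and 12 counts in vehicle cultures, a log2 fold change of 1.84 (SE 0.377, edgeR adjusted p = 1.39e-04). All counts of the pair were on Ighv1-37 in uridine cultures, and 21.6% were in vehicle cultures. Ighv1-31 also had no count in uridine cultures, against 6, 9 and 6 in vehicle cultures, at least 7.64-fold lower.

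Among the segments that rose, Ighv1-81 had 12.8, 14.3 and 9.30 CPM in uridine cultures and 5.05, 3.19 and 4.91 CPM in vehicle cultures, a log2 fold change of 1.46 (SE 0.133, edgeR adjusted p = 2.12e-11). Ighv7-1 had 3.50, 3.53 and 3.03 CPM in uridine cultures and 1.32, 0.659 and 1.36 CPM in vehicle cultures, a log2 fold change of 1.59 (SE 0.220). Ighv2-3 rose by 1.60 (SE 0.314) and Ighv2-9 by 1.55 (SE 0.265). Ighv1-22 rose by 0.68 (SE 0.130), Ighv9-3 by 0.42 (SE 0.0914) and Ighv1-39 by 0.41 (SE 0.105). Ighv11-2, at 11.6, 12.9 and 13.3 CPM in uridine cultures and 11.4, 12.6 and 13.2 CPM in vehicle cultures, was not called (edgeR adjusted p = 0.845). Ighv5-2, with 10 counts in uridine cultures and 3 in vehicle cultures, was not called (edgeR adjusted p = 0.211) but was without vehicle library 1, which held all 3 of the vehicle counts (edgeR adjusted p = 0.0234). In the same contrast 8 of the 9 precursor genes rose and 1 fell, 3 of the 8 constant genes rose and 4 fell, and 2 of the 8 plasma cell genes rose and 3 fell. Of the 8 mature B cell genes 6 rose and 1 fell, and of the 6 T cell genes 5 were called higher. Of the 10 stem and progenitor genes 2 rose and 5 fell. Among all genes tested 20.0% were higher and 18.1% lower. The call of Cd3e, one of the 5 T cell genes, came from libraries that overlapped and was lost in 4 fits with a library left out (edgeR adjusted p = 0.0621 to 0.183). Vpreb1, part of the surrogate light chain of precursors, averaged 25.2 ± 1.83 CPM in uridine cultures and 0.724 ± 0.197 CPM in vehicle cultures.

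**Figure D5:**
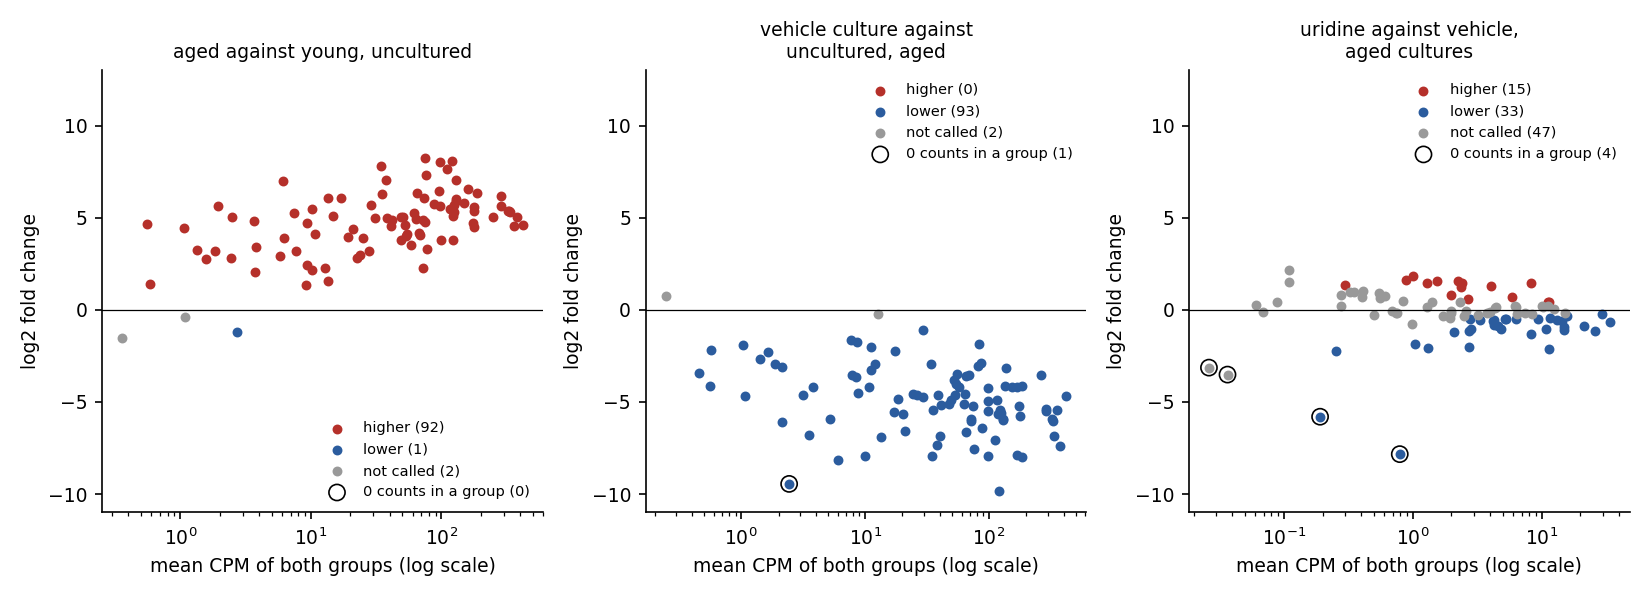
Log2 fold change of the 95 segments tested against the mean CPM of both groups (log scale), for uncultured aged against young cells, vehicle cultures against uncultured aged cells, and uridine against vehicle cultures. Red segments were higher and blue ones lower at an edgeR adjusted p under 0.05; ringed segments had 0 counts in a group, so their fold depends on the prior count, and Ighv3-4, with 0 counts in both cultures, is not drawn in the right panel.

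The members at the edge of the count minimum were Ighv6-5, Ighv16-1 and Ighv6-4, with 11, 12 and 18 counts over the 12 libraries, and the nearest segments outside it were Ighv1-62-1, Ighv1-24 and Ighv8-11, with 7, 6 and 5. All 12 counts of Ighv16-1 were in uncultured aged cells, and Ighv6-5 had none there. The totals of the members ran from 11 to 40908 with a median of 3861. The 70 annotated Ighv pseudogenes together had 7 to 102 counts per library.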

How the data were processed

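The authors deposited 1 table of raw gene counts for the 12 libraries, which was analysed here. Per the labels' protocols, RNA was extracted with Trizol, mRNA was purified with poly-T beads, and paired reads of 150 bp were made on a NovaSeq instrument. Alignment was to mm10 by HISAT2 2.0.5, per the submitters' processing notes. The counter, gene models and strand setting behind the counts were not given in the sources used here. Counts per gene do not tell rearranged from germline transcripts or one clone from another, and reads shared by near-identical segments are uncertain.

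GENCODE M21 (GRCm38) supplied symbols, biotypes, positions and transcript sequences for 54409 gene IDs; 123 IDs were not matched and held at most 0.0649% of a library. Groups came from the sample titles, and no value column was left unused. All 12 libraries were fitted with edgeR 4.0.16 (filterByExpr, TMM factors, quasi-likelihood F-test, residual degrees of freedom 8), with Benjamini-Hochberg adjustment over 16675 genes at 0.05. Shares, effective numbers (exponential of the Shannon entropy), expected segments at 8389 Ighv counts and distances (the percentage of Ighv counts on different segments) were described without a test. DESeq2 1.42.0, other scalings and filters, a replicate block and leaving out each library were alternatives, and the fit was tested on simulated data. Of simulated 1.2-fold changes it recovered 38% for aged against young, 46% for vehicle against uncultured and 58% for uridine against vehicle. Of 2-fold changes it recovered 98% in each comparison. False calls made up 6.74, 7.26 and 2.78% of the calls, in the same order. The changes were simulated in a small part of the genes, each above a minimum level in the reference group. Segments below that level, such as Ighv2-3 in vehicle cultures, are not covered by the recoveries. A much larger part of the genes was called in the data, so the rates may differ there.

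The members, the lists of marker genes and the tests were chosen with earlier results of these data known. Segments were named if they were among the 5 most used in a group or the 5 largest called rises or falls of a comparison with at least 30 counts, at the edge of the count minimum, or known from B-1 cells or early development. Ighv1-84, Ighv1-49, Ighv1-23 and Ighv1-31, and markers printed singly, were picked from the results after their values were seen.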

Additional observations from a re-analysis of the deposited data

How the results depend on the processing

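Of 987 values for single genes under other scalings, tests, filters, sample sets and the replicate block, 984 kept their direction and side of the threshold and 3 (Kit, uridine against vehicle) became calls. Of 744 with a library left out, 730 kept both. In the uridine comparison 5 changed sign, none of them called. Ighv11-2 ran from -0.036 to 0.084, Ighv2-6 from -0.43 to 0.015, Ighv8-5 from -0.40 to 0.13 and Ighv9-2 from -0.17 to 0.56 in log2 fold change. Cd3e lost its call there in 4 such fits, and Ighv1-53 and Ighv1-80 gained one without uridine library 2. Counts of called segments ran, with a library left out, over 92 to 95 (higher 91 to 94, lower 1 to 2) for aged against young, 93 to 96 (0 higher) for vehicle against uncultured, and 43 to 50 (higher 14 to 17, lower 29 to 33) for uridine against vehicle. An absolute log2 fold change of at least 1 left 25 in the last comparison (15 lower), by its construction and without a share of all genes beside it. Libraries of the same replicate number shared no visible deviation from their group means (correlations -0.019 to 0.021). This cannot show whether they were paired by mouse or batch, which the labels do not give. The replicate block called 92, 93 and 47 segments. The effective number moved by more than 1 SD in these cases. In uridine cultures it was 53.74 with pseudogenes, 52.7 with a minimum of 100 counts, 54.02 without the most used segment, 52.52 with near-identical copies merged and 52.61 per kilobase of exon, which was added after seeing the data. In vehicle cultures it was 48.51 without the most used segment, 46.57 merged and 46.72 per kilobase. In uncultured aged cells it was 52.13 with pseudogenes, 51.86 with the minimum of 100, 52.19 without the most used segment, 51.61 merged and 51.87 per kilobase, and in young cells 54.1 without the most used segment. Vehicle cultures stayed lowest in each; the cause of the shifts was not tested. The 7 segments not tested had too few counts at this depth.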
